A study of Mus musculus with 6 samples.

Results

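Retinoic acid signalling was followed through 9 genes in 6 lines of mouse embryo fibroblasts. They are the binding protein genes Crabp1 and Crabp2, the synthesis genes Aldh1a1, Aldh1a2 and Aldh1a3, the breakdown gene Cyp26b1 and the receptor genes Rara, Rarb and Rarg, taken by symbol from the 49315 genes of the deposited tables. The set was chosen by earlier results of these data in the same contrast, so the differences between genotypes are described below without p-values for these 9 genes. For Crabp1, Crabp2 and Aldh1a3 every SG line lay below every WT line. Rara lay within a narrow range in all 6 lines, and Aldh1a1 differed most from line to line.

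All 6 lines were p53-/- on the C57BL/6 strain, at passage 4 and without treatment. The 3 SG lines (SG1, SG2, SG3) were MDMXSG/SG, which means that both MDMX alleles were knock-ins with the substitutions W201S and W202G, and the 3 WT lines (WT3, WT9, WT11) were MDMXWT/WT. MDMX is an inhibitor of p53, and the study asked which transcripts respond when its contact with the kinase CK1-alpha is broken. Because the controls lack p53 too, the contrast is between MDMX alleles in cells without p53. Each line came from 1 embryo, and the age and litter of the embryos are not given in the sources used here.

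Retinoic acid is made from vitamin A in a pair of oxidation steps, from retinol to retinaldehyde and from retinaldehyde to the acid, and the ALDH1A enzymes carry out the second. CRABP proteins bind it in the cytoplasm, where CRABP1 is linked to its turnover and CRABP2 to its delivery to the nucleus, and CYP26 enzymes oxidise it further so that it can be removed. In the nucleus the receptors RARα, RARβ and RARγ pair with RXR proteins on DNA elements made of repeated hexamers and switch genes on when the ligand is bound. In the embryo this system patterns the trunk, limbs, face and heart, and fibroblasts from embryos carry parts of it into culture.

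The promoter of Rarb held a repeat of the kind that these receptors bind, and it is shown here because it was the 1 match among the promoters examined for the 9 genes. Retinoic acid response elements were searched as direct repeats of the consensus hexamer AGGTCA, or of a variant of it that reads GGGTCA, another that reads AGTTCA, or another that reads GGTTCA, in any combination, with 1, 2 or 5 bases between them, on both strands. Windows came from RefSeq (GRCm38.p6) and ran from 250 bases before a start site to 50 bases from it on. Of the 9 genes, 7 had a window, 12 windows in all; Crabp2 and Aldh1a3 had none. The 250 bases before the Rarb start are at chr14:16575477-16575726 on the minus strand, with the pair of hexamers in capitals:
Rarb: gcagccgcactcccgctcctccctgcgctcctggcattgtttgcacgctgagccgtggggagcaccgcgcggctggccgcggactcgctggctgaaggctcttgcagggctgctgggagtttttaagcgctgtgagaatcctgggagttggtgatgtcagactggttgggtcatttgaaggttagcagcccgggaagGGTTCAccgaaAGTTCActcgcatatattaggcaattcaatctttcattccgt

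The repeat in Rarb has 5 bases between its hexamers, reads on the strand of the gene and begins 53 bases before the start site. The RefSeq start at position 16575476 lies 4 bases outside the gene model of the count tables, which ends at 16575472. A repeat with this spacing was present in 32 of 32851 promoter windows (0.097%), and any of the 3 spacings in 193 (0.588%). Among the other retinoid genes examined below, Cyp26a1, a breakdown enzyme, had a match with the same spacing and Bco1, which cleaves carotenoids to retinaldehyde, had 1 with a spacing of 1 base, both on the strand opposite to the gene. The sites differ as follows, with hexamers in capitals:
Rarb: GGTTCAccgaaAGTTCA
Cyp26a1: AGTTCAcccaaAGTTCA
Bco1: AGGTCAaAGGTCA

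A match is a description of letters and not of a bound site. The promoter of Crabp1, the gene with the highest level of the 9, had no match in its window. Its 250 bases before the start are at chr9:54764498-54764747 on the plus strand:
Crabp1: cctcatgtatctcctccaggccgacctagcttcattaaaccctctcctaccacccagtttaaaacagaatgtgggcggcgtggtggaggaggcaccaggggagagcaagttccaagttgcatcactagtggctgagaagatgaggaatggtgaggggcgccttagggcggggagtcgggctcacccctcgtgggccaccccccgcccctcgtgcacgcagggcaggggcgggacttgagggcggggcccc

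Poly(A)-selected RNA was counted per gene, with 49317925 to 65457242 counts in a line and 23053 to 23781 genes with at least 1 count. Of 16068 genes with enough counts to be tested, 306 (1.9%) passed an adjusted p of 0.05 in edgeR's quasi-likelihood test, 130 higher (0.809%) and 176 lower (1.1%) in SG. DESeq2 passed 5.9% of them and limma-voom 2.03%. Unadjusted p-values under 0.05 were common among all tested genes. In edgeR's test Cspg4, at an unadjusted p of 0.0484, ranked 2442 of the 16068. Counts at that level in the lists below show no excess by themselves. SG1 and WT9 carried Xist, the noncoding RNA of the inactive X chromosome, at 22032 and 22433 counts, and the other 4 lines had between 33 and 42 counts of it, so each genotype has 1 line with Xist. All 12 fibroblast markers passed the count filter, and of these Fn1 was higher in SG (adjusted p = 0.0308) and Thy1 (adjusted p = 0.00802) and S100a4 (adjusted p = 0.0362) were lower. Of the exon bases of S100a4, 51.7% are shared with Gm42674 on the same strand, so its count is uncertain. The substitutions in MDMX change codons and leave the gene's total count uninformative, so they could not be checked.

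Levels below are CPM, counts scaled to the TMM-adjusted library size, and fold changes are log2 values of SG minus WT from edgeR with a standard error (SE), 3 against 3 lines. All 9 genes passed the count filter, and no exon of theirs overlapped an exon of another gene. Crabp1 passed the threshold, 1 of the 9, and nothing is read from that count, since the set was selected on this contrast. The same holds for the passes and losses of single genes under other settings given below. For 3 of the 9 the lines of the genotypes did not overlap, each time lower in SG, where 21.2% of all tested genes did not overlap and 11.2% did so with SG lower. Log2 fold changes were above 0 for 2 of the 9 and below 0 for 7, with a median of -0.18 against 0.002 for all tested genes.

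**Figure D1:**
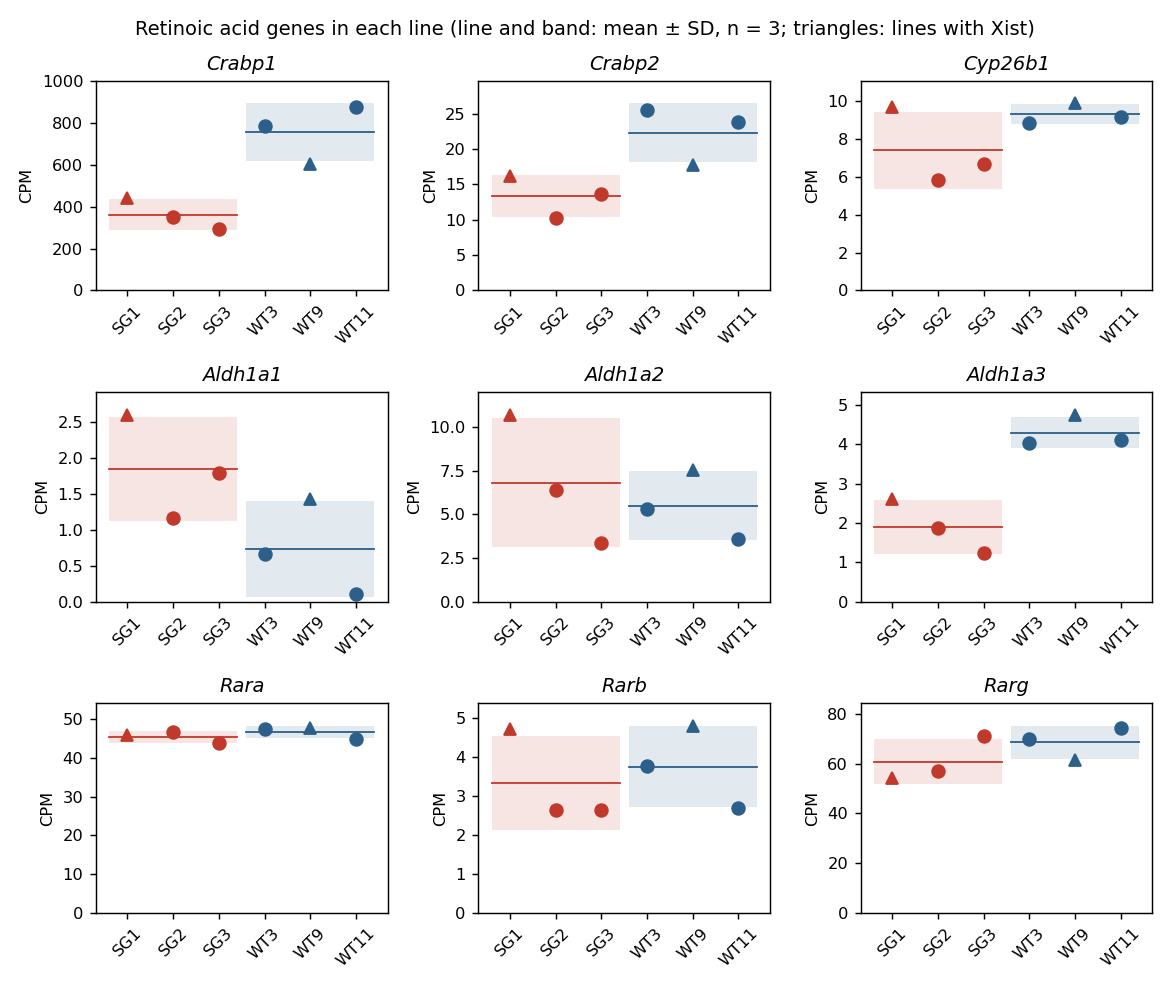
Level of each of the 9 genes in each line, in CPM on axes that start at 0; points are lines, horizontal lines and bands are the mean ± SD of 3 lines, red for SG and blue for WT, and triangles mark the lines with Xist. The points of the genotypes are apart for Crabp1, Crabp2 and Aldh1a3 and overlap for the other 6 genes.

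Crabp1 (ENSMUSG00000032291, chromosome 9, 54764748 to 54773110, plus strand), which encodes the cytoplasmic binding protein linked to retinoic acid turnover, was about 2-fold lower in SG. It stood at 439.7, 351.6 and 292.9 CPM in lines SG1 to SG3 and at 786.7, 603.1 and 874.5 CPM in WT3, WT9 and WT11. Every SG line was thus below every WT line, with SG3 lowest and WT11 highest. The means were 361 ± 73.9 CPM over the SG lines against 755 ± 138 CPM over the WT lines (SD, n = 3 each), 2.09-fold higher in WT, with a log2 fold change of -1.06 (SE 0.17). Its pass of the threshold was lost without SG2, without WT3 or without WT11, with a robust prior and with a minimum fold of 1.5; the log2 fold change lay between -0.93 and -1.23 when single lines were left out. Without SG1 and WT9 it was -1.37, and those of Crabp2 and Aldh1a3, described next, were -1.05 and -1.39. In bulk RNA, fewer cells with Crabp1 and less Crabp1 RNA per cell cannot be told apart.

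Crabp2 (ENSMUSG00000004885, chromosome 3, 87948666 to 87953376, plus strand), whose product hands retinoic acid to the receptors, was lower in SG as well. Its values were 16.2, 10.3 and 13.6 CPM in lines SG1 to SG3 and 25.5, 17.7 and 23.9 CPM in WT3, WT9 and WT11. The genotypes did not overlap, but SG1 and WT9 came close to each other. Means were 13.4 ± 2.99 CPM over the SG lines against 22.4 ± 4.12 CPM over the WT lines, a log2 fold change of -0.74 (SE 0.19). The gene was not past the threshold over all tested genes. It was past it with no count filter, with DESeq2, without SG1, without WT9 and without both. In those settings 2.82% to 5.9% of all tested genes passed, against 1.9% in the reported fit. Across the 6 lines log2 levels of Crabp1 and Crabp2 had a correlation of 0.90, and 0.64 once each genotype's mean was removed, given as a description of 6 points that share libraries and genotypes.

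Aldh1a3 (ENSMUSG00000015134, chromosome 7, 66390890 to 66427517, minus strand), a retinaldehyde dehydrogenase of the face, eye and nasal region in the embryo, had the largest negative fold change of the 9. It was at 2.61, 1.87 and 1.23 CPM in lines SG1 to SG3 and at 4.02, 4.75 and 4.11 CPM in WT3, WT9 and WT11. The WT lines were close to each other and all above the SG lines, which ran from SG1 down to SG3. Means were 1.90 ± 0.689 CPM over the SG lines against 4.30 ± 0.399 CPM over the WT lines, a log2 fold change of -1.18 (SE 0.25). It was not past the threshold over all tested genes. It was past it with no count filter, with DESeq2, with limma-voom, with an Xist covariate, without SG1, and without SG1 and WT9. In those settings 2.03% to 5.9% of all tested genes passed, against 1.9% in the reported fit. The values rest on 72 to 311 counts a line.

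Aldh1a1 (ENSMUSG00000053279, chromosome 19, 20601961 to 20643462, plus strand), a further retinaldehyde dehydrogenase, varied most of the 9 between lines. Counts were 144, 74 and 105 in lines SG1 to SG3 and 33, 94 and 6 in lines WT3, WT9 and WT11, or 2.61, 1.16 and 1.80 CPM against 0.660, 1.44 and 0.0999 CPM. The highest line was 26.1 times the lowest, and WT9 lay above SG2, so the genotypes overlapped. Its log2 fold change was 1.32 with an SE of 0.67, and it ranged from 0.80 without WT11 to 2.33 without WT9. Aldh1a7, its paralog beside it in the genome, may share reads with it.

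Aldh1a2 (ENSMUSG00000013584, chromosome 9, 71215789 to 71296243, plus strand) encodes the main enzyme of retinoic acid synthesis in the embryo's trunk. It was at 10.7, 6.41 and 3.34 CPM in lines SG1 to SG3 and at 5.32, 7.57 and 3.61 CPM in WT3, WT9 and WT11. The WT lines lay within the range of the SG lines, and SG1 and WT9 were the highest of their genotypes. Means were 6.83 ± 3.71 and 5.50 ± 1.98 CPM, a log2 fold change of 0.31 (SE 0.41) that turned to -0.17 without SG1.

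Cyp26b1 (ENSMUSG00000063415, chromosome 6, 84571414 to 84593908, minus strand), which encodes a retinoic acid hydroxylase of limb and gonad, overlapped between genotypes. It stood at 9.71, 5.86 and 6.68 CPM in lines SG1 to SG3 and at 8.86, 9.89 and 9.18 CPM in WT3, WT9 and WT11. SG1 was among the WT lines, while SG2 and SG3 were below them. Means were 7.42 ± 2.03 CPM over the SG lines against 9.31 ± 0.527 CPM over the WT lines, a log2 fold change of -0.33 (SE 0.18). Without SG1 it was -0.57 and past the threshold, where 3.53% of all tested genes passed, and without SG2 it was -0.18.

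Of the receptors, Rara (ENSMUSG00000037992, chromosome 11, 98927818 to 98974942, plus strand) was the most even gene of the 9. Its values were 45.9, 46.7 and 43.8 CPM in lines SG1 to SG3 and 47.5, 47.8 and 44.9 CPM in WT3, WT9 and WT11, so the highest line was 1.09 times the lowest. The log2 fold change was -0.04 (SE 0.04). Rarg (ENSMUSG00000001288, chromosome 15, 102234938 to 102257517, minus strand), the receptor of skin, cartilage and mesenchyme, was at 54.3, 57.0 and 71.4 CPM in lines SG1 to SG3 and at 69.96, 61.4 and 74.6 CPM in WT3, WT9 and WT11. SG3 and WT11 were highest within their genotypes and SG1 and WT9 lowest, and the log2 fold change was -0.17 (SE 0.11), or -0.30 without SG3 and -0.10 without SG1.

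Rarb (ENSMUSG00000017491, chromosome 14, 16430842 to 16575472, minus strand), the receptor gene with the repeat shown above, is widely used as a readout of retinoic acid. It was low, at 4.73, 2.63 and 2.65 CPM in lines SG1 to SG3 and at 3.78, 4.80 and 2.698 CPM in WT3, WT9 and WT11. The genotypes covered nearly the same range, and SG1 and WT9 stood above the others at similar levels. Means were 3.34 ± 1.205 and 3.76 ± 1.05 CPM, a log2 fold change of -0.18 (SE 0.29) that was 0.04 without WT9. Cyp26a1, the other gene with a repeat of that spacing and a sensitive target of retinoic acid, had 1 to 7 counts a line and was not tested.

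To compare levels between genes, counts were also divided by exon length (RPKM, the CPM per kilobase of exon). Crabp1, with a mean of 696 RPKM over the 6 lines and a range of 365 to 1090, was rank 43 of 16068 tested genes. Rarg followed at 15.8 RPKM (13.2 to 18.1), Crabp2 at 13.5 (7.78 to 19.3) and Rara at 10.6 (10.0 to 10.9). Below these came Aldh1a2 at 2.72 RPKM (1.47 to 4.74), Cyp26b1 at 1.56 (1.09 to 1.85), Rarb at 1.17 (0.868 to 1.58), Aldh1a3 at 0.671 (0.267 to 1.03) and Aldh1a1 at 0.630 (0.0487 to 1.27). In this order the ranges over lines were apart between Crabp1 and Rarg and between Rara and Aldh1a2, and neighbours elsewhere in it overlapped.

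Within families the make-up differed in how stable it was. Crabp1 made up 97.2% to 98.4% of the summed CRABP RPKM in each line, while the sum was 461 ± 93.3 RPKM in SG and 958 ± 175 RPKM in WT. The RAR sum was 26.3 ± 1.68 RPKM in SG and 28.6 ± 1.04 RPKM in WT, of which Rarg held a mean of 56.1% and 58.2%, Rara 39.7% and 37.4%, and Rarb 4.22% and 4.36%. These mean shares differed between genotypes by less than their SD over lines.

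In the ALDH1A family the sums of the genotypes overlapped and the shares of Aldh1a3 did not. Its sum was 6.57, 3.80 and 2.62 RPKM in lines SG1 to SG3 and 3.54, 5.07 and 2.54 RPKM in WT3, WT9 and WT11, with means of 4.33 ± 2.03 and 3.72 ± 1.28. Aldh1a2 held most of it in every line, between 56.3% and 74.5%. The share of Aldh1a3 was 8.60%, 10.6% and 10.2% in the SG lines and 24.6%, 20.3% and 35.1% in the WT lines, with no overlap. Aldh1a1 held 19.3%, 14.9% and 33.5% in the SG lines and 9.08%, 13.8% and 1.92% in the WT lines, which came close to each other between SG2 and WT9. In all 3 SG lines the RPKM of Aldh1a1 was above that of Aldh1a3, and in all 3 WT lines it was below. These shares come from the contrast on which the genes were selected and carry no test.

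**Figure D2:**
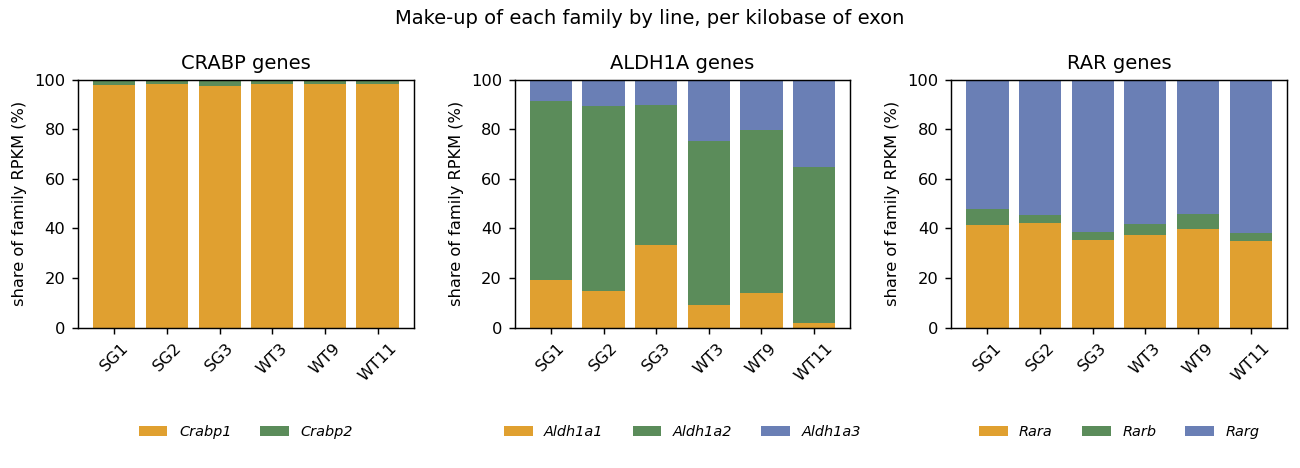
Stacked bars of the share of each gene in the summed RPKM of its family, in percent, for each of the 6 lines; the panels are the CRABP, ALDH1A and RAR genes. The Aldh1a3 part is 8.60% to 10.6% in SG lines and 20.3% to 35.1% in WT lines, while the CRABP and RAR panels look alike across lines.

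A further pattern ran across both genotypes. Aldh1a1, Aldh1a2, Aldh1a3, Cyp26b1 and Rarb, 5 of the 9 genes, were highest in SG1 among the SG lines and in WT9 among the WT lines, the lines with Xist; of all tested genes 13% did so. Rarg was lowest in both of these lines. Deviations from the genotype mean on the log2 scale were 0.80 in SG1 and 0.52 in WT9 for Aldh1a2, 0.55 and 0.39 for Rarb, and 0.56 and 1.51 for Aldh1a1. They were smaller in WT9 for Aldh1a3 (0.51 and 0.15) and Cyp26b1 (0.42 and 0.09), which were only slightly above the other WT lines there. With genotype means removed, Aldh1a2 and Rarb had a correlation of 0.88 over the 6 lines, Aldh1a2 and Aldh1a3 of 0.92, and Aldh1a2 and Rarg of -0.96.

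Markers of mesothelium, the lining of body cavities, moved in part with several of these genes. Of the 10 markers 9 were tested, and 7 of these were highest in both SG1 and WT9, Wt1, Upk3b and Lrrn4 among them, while Msln was lowest in both. Over the 6 lines Aldh1a1 had a correlation with Lrrn4 of 0.99 and with Wt1 of 0.96, and 0.98 and 0.94 with genotype means removed; with Msln it was -0.09 and -0.64. Aldh1a1 and Krt19 had correlations of -0.22 and 0.40. Those of Aldh1a2 were 0.72 and 0.80 with Upk3b, 0.17 and 0.05 with Bnc1, and -0.36 and -0.55 with Msln. Wt1 was at 3.03, 1.61 and 2.04 CPM in lines SG1 to SG3 and at 0.940, 2.02 and 0.566 CPM in WT3, WT9 and WT11, Lrrn4 at 3.10, 1.74 and 2.28 CPM and 0.980, 2.34 and 0.366 CPM. None of the 10 was at 0 in all lines, and their summed level was 81.8 to 110.1 CPM in SG and 89.2 to 104.8 CPM in WT, which is mostly Krt19 and Msln. Between genotypes 8 of the 9 had a log2 fold change above 0, with a median of 0.61, the same direction as Aldh1a1. Of the 9 tested 0 passed between genotypes in edgeR's test, with 1 at an unadjusted p under 0.05 and 0 in DESeq2 or limma-voom. The part of such cells, or of the Xist difference, in the levels of the 9 genes was not tested.

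Of markers of 7 other cell types 43 were tested and 0 passed in edgeR's test, with 13 at an unadjusted p under 0.05, 7 in DESeq2 and 2 in limma-voom. Among all tested genes DESeq2 passed 5.9% and limma-voom 2.03%, and unadjusted p-values under 0.05 were common, as given above. Of the 10 epithelium markers 6 were tested, 5 with a log2 fold change above 0 and 1 below. The 10 summed to 47.2, 47.4 and 19.2 CPM in lines SG1 to SG3 and 22.8, 26.3 and 12.6 CPM in WT3, WT9 and WT11. Krt14 was higher in SG without overlap (2.33 on the log2 scale) and passed in DESeq2. The other markers past the threshold in DESeq2 came from other cell types and went both ways. Elavl4, Nes and Kdr were higher in SG (0.79, 0.51 and 0.39), Kdr with overlap. Sox2, Pax3 and Fabp4 were lower without overlap (-2.89, -1.53 and -1.30). The genes that passed in limma-voom were Nes and Fabp4. Krt5 was not tested, with 162 and 107 counts in SG1 and SG2 and 0 in the other lines. The part of such cells in the levels of the 9 genes was not tested. All 10 macrophage markers were tested, 9 had a log2 fold change above 0 with a median of 0.57, none was at 0 in all lines, and their summed level was 28.9, 32.5 and 66.8 CPM in lines SG1 to SG3 and 36.8, 35.0 and 12.7 CPM in WT3, WT9 and WT11. SG3, with the lowest Crabp1, thus had the highest sum and WT11, with the highest Crabp1, the lowest. The lines between them did not keep this order. WT3 and WT9, with more Crabp1 (786.7 and 603.1 CPM) than SG1 and SG2 (439.7 and 351.6 CPM), also had the higher macrophage sums. A correlation with Crabp1 was computed for the macrophage gene Lyz2 alone, and was -0.72 over the 6 lines and -0.78 with genotype means removed. Mesothelium markers had correlations with Crabp1 from -0.80 (Bnc1) to 0.75 (Krt19), and from -0.56 to 0.41 with genotype means removed. The part of any of these cells in the level of Crabp1 was not tested.

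**Figure D3:**
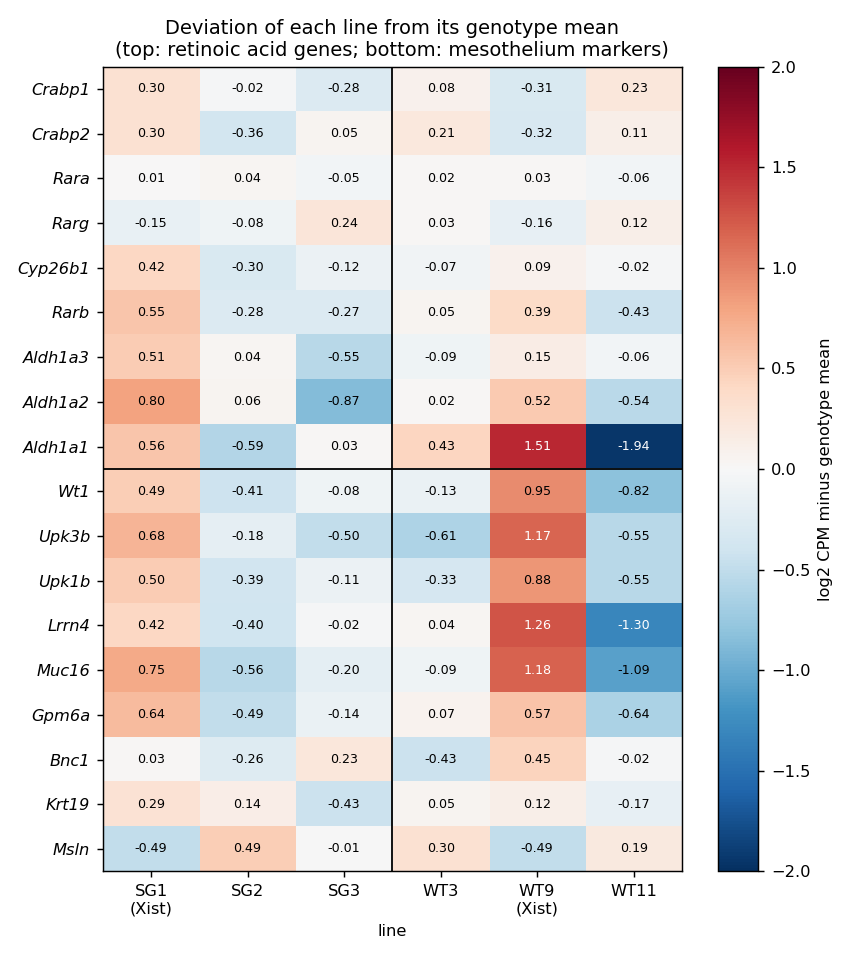
Log2 CPM of each gene in each line minus the mean of its genotype, red above and blue below that mean, with the values written in; the 9 genes are at the top and 9 mesothelium markers at the bottom. Aldh1a1, Aldh1a2, Aldh1a3, Cyp26b1 and Rarb are above the mean in SG1 and WT9, as are all markers but Msln, and Crabp1 and Crabp2 are above it in SG1 and below it in WT9.

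The remainder of the pathway was examined through 80 other genes in 6 lists taken from textbook knowledge, and earlier results on Hox and Meis genes were known when the lists were made. Of these 58 were tested and 6 passed the threshold, of which 4 were higher in SG lines and 2 lower, where 1.9% of all tested genes passed, 0.809% higher and 1.1% lower. Their median log2 fold change was -0.00, with 28 above and 30 below 0. Of the 80, 14 had at most 3 counts in every line, and Lrat, Rpe65, Rbp3, Rdh9 and Sdr16c5 had 0 in all lines. None of the 6 passed without SG2 or with a minimum fold of 1.5, and of the 6 Hoxa4 alone passed without WT3 or without WT11. In those settings 0.0184% to 0.177% of all tested genes passed.

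Uptake and storage genes were mostly below the count filter. Of 14, 3 were tested and 0 passed in edgeR's test, with 0 at an unadjusted p under 0.05 and 0 in DESeq2 or limma-voom. Rbp4, the carrier of retinol in blood, was at 1.57 ± 0.508 CPM over the SG lines against 0.976 ± 0.272 CPM over the WT lines (0.69 on the log2 scale, SE 0.31, adjusted p = 0.339), and at 0.32 without SG1 and WT9. Stra6, the retinol uptake receptor, had 1 to 7 counts a line and was not tested.

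Of 17 genes that interconvert retinol and retinaldehyde, 12 were tested, and Adh7 and Dhrs9 fell. Adh7, an alcohol dehydrogenase that can oxidise retinol, was at 1.27, 0.815 and 1.66 CPM in lines SG1 to SG3 and at 4.34, 3.47 and 4.26 CPM in WT3, WT9 and WT11. It was 3.23-fold higher in WT, a difference of -1.69 on the log2 scale (SE 0.25, adjusted p = 0.0232) with no overlap of the genotypes. Dhrs9, a retinol dehydrogenase of the short-chain family, was at 6.52, 5.14 and 5.77 CPM against 16.0, 9.92 and 10.2 CPM, also without overlap (-1.05 on the log2 scale, SE 0.20, adjusted p = 0.0445). Adh7 and Dhrs9 both passed in DESeq2, and in limma-voom Adh7 alone; Dhrs9 also no longer passed with a robust prior, or without SG2, SG3, WT3 or WT11 singly. Rdh10, the main retinol dehydrogenase of the embryo, was at 20.2 ± 0.980 CPM over the SG lines against 21.0 ± 1.70 CPM over the WT lines (-0.05, SE 0.07, adjusted p = 0.792). Dhrs3, which reduces retinaldehyde back to retinol, was at 4.20 ± 1.40 and 3.33 ± 0.350 CPM (0.33, SE 0.23, adjusted p = 0.550), and 0.03 on the log2 scale without SG3.

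Of 5 other retinoic acid enzymes 3 were tested, and in edgeR's test 0 passed, with 2 at an unadjusted p under 0.05, 1 (Cyp1b1) in DESeq2 and 0 in limma-voom. DESeq2 passed 5.9% of all tested genes, and unadjusted p-values under 0.05 were common among them, as given above. Cyp1b1, a cytochrome P450 that can make retinoic acid from retinol, was at 139.7, 176.0 and 214.1 CPM in lines SG1 to SG3 and at 83.0, 117.1 and 77.96 CPM in WT3, WT9 and WT11. The genotypes did not overlap, and at 0.93 on the log2 scale (SE 0.19, adjusted p = 0.0545) the gene missed the threshold. Its difference passed in 5 of the alternatives run, DESeq2 among them. Aldh1a7 was 3.02-fold higher in SG on low and variable counts (1.61 on the log2 scale, SE 0.58, adjusted p = 0.235), and Cyp26c1 had 2 to 20 counts a line (-0.38, SE 0.64, adjusted p = 0.833).

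All 10 partner genes of the receptors were tested and 0 passed in edgeR's test, with 5 at an unadjusted p under 0.05, 2 in DESeq2 (Fabp5 and Rxrg) and 1 in limma-voom (Fabp5). DESeq2 passed 5.9% and limma-voom 2.03% of all tested genes, among which unadjusted p-values under 0.05 were common, as given above. Rxra was at 41.4 ± 4.73 CPM over the SG lines against 45.8 ± 1.74 CPM over the WT lines (adjusted p = 0.432) and Rxrb at 36.6 ± 0.717 and 38.8 ± 1.62 CPM (adjusted p = 0.416). Rxrg, with 6 to 72 counts a line, was at 0.507, 0.172 and 0.103 CPM in the SG lines and 0.860, 0.994 and 1.199 CPM in the WT lines (-1.98 on the log2 scale, SE 0.48, adjusted p = 0.0881). Fabp5, which carries retinoic acid to another nuclear receptor, was at 94.5 ± 7.0 CPM over the SG lines against 117.8 ± 6.75 CPM over the WT lines without overlap (-0.32, SE 0.06, adjusted p = 0.0539). Nr2f1 and Nr2f2, orphan receptors that compete for the same repeats, had log2 fold changes of 0.69 (SE 0.24, adjusted p = 0.228) and 0.17 (SE 0.09, adjusted p = 0.446). Without WT9 that of Nr2f1 was 1.06 and past the threshold (adjusted p = 0.0127), and without SG3 that of Nr2f2 was 0.04. Rxrg (-2.86) and Fabp5 (-0.38) passed without SG1. Of 14 cofactors of the receptors all were tested and 0 passed in edgeR's test, with 3 at an unadjusted p under 0.05 and 0 in DESeq2 or limma-voom; Crebbp (0.18, SE 0.06, adjusted p = 0.183) and Ncoa3 (0.09, SE 0.03, adjusted p = 0.262) had the smallest p-values.

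Of 29 genes that retinoic acid is known to raise, 22 were tested and 4 rose, Hoxa4, Meis2 and Ret among them, with 0 lower. Hoxa4, a homeobox gene of trunk position, was at 3.97, 4.54 and 4.93 CPM in lines SG1 to SG3 and at 1.56, 1.82 and 1.67 CPM in WT3, WT9 and WT11 (1.41 on the log2 scale, SE 0.13, adjusted p = 0.00802), and 16% of its exon bases are shared with Gm29430. Meis2, a homeobox partner of Hox proteins, was at 58.1 ± 7.80 CPM over the SG lines against 39.3 ± 2.25 CPM over the WT lines (0.56, SE 0.09, adjusted p = 0.0322). With a robust prior in edgeR's test Meis2 no longer passed (adjusted p = 0.0533). Ret, a receptor tyrosine kinase of kidney and nerve development, was at 3.31 ± 0.0840 and 1.63 ± 0.425 CPM (1.02, SE 0.19, adjusted p = 0.0450). The genotypes did not overlap for any of these 4. The median of the 22 was 0.18, with 14 above and 8 below 0; for 9 the genotypes did not overlap, all higher in SG, where 10% of all tested genes did not overlap with SG higher and 0.809% passed as higher. Ret no longer passed when any single line other than WT9 was left out. As the Hox and Meis results were known, this count is not independent evidence of a direction.

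Other genes of that list did not pass, Tgm2 and Meis1 among them. Tgm2, tissue transglutaminase, was at 45.4 ± 2.04 CPM over the SG lines against 39.7 ± 12.4 CPM over the WT lines (0.19, SE 0.20, adjusted p = 0.713). Meis1 was at 18.0 ± 0.626 and 16.8 ± 2.51 CPM (0.10, SE 0.11, adjusted p = 0.719). The lists mix genes raised by retinoic acid with genes set by position along the body, and these counts do not measure the ligand.

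**Figure D4:**
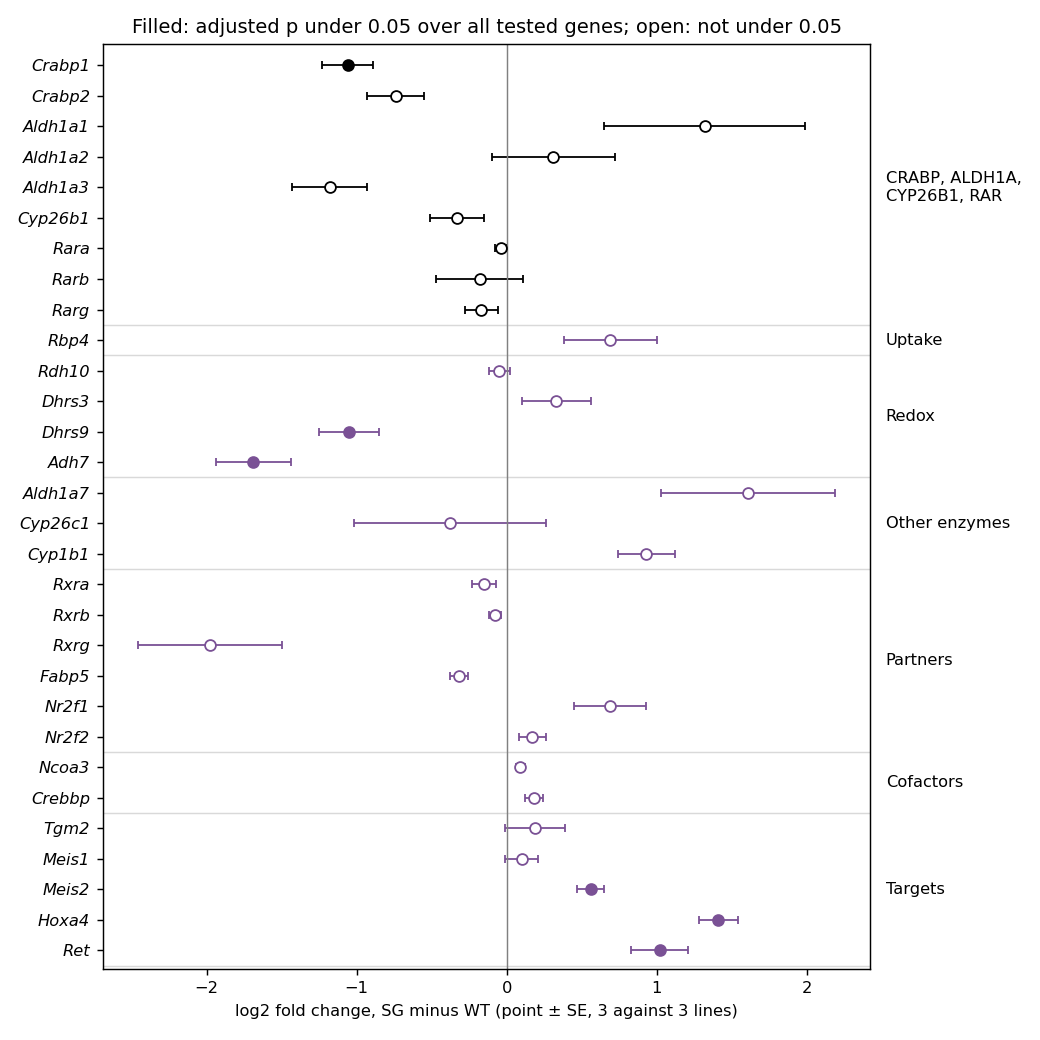
Log2 fold change, SG minus WT, of the 9 genes (black) and of other retinoid genes (purple) grouped by list, with bars of ± SE from edgeR's fit to 3 against 3 lines; filled points passed the threshold over all tested genes. Filled points are Crabp1, Adh7 and Dhrs9 on the lower side and Meis2, Hoxa4 and Ret on the higher side.

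Among all tested genes Cyp1b1 had the second lowest correlation with Crabp1, -0.995, and with genotype means removed it was -0.99. The pair was chosen after its values were seen. The 6 lines stood in exactly reverse order for the pair, from SG3, with the lowest Crabp1 and the highest Cyp1b1, to WT11. With 6 lines and 16068 genes, 197 genes had a correlation with Crabp1 at or below -0.95 and 225 at or above 0.95, so the value is given as a description.

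**Figure D5:**
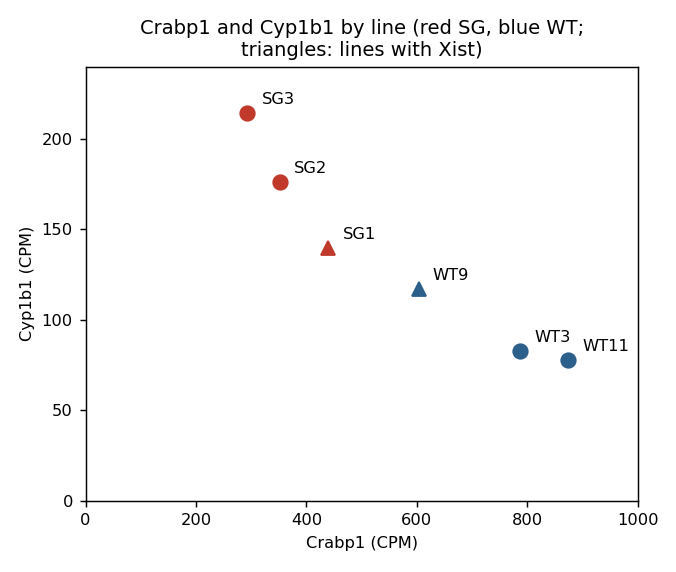
Cyp1b1 against Crabp1, both in CPM, 1 point per line, red for SG and blue for WT, with triangles for the lines with Xist. The points descend from SG3 (292.9 CPM of Crabp1, 214.1 of Cyp1b1) to WT11 (874.5 and 77.96) without a break in order.

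By a rule that took the gene of the 9 with the largest absolute fold change and an average log2 CPM of at least 1, the genes most like Aldh1a3 across the 6 lines were listed among 10974 genes. Fgfr1, an FGF receptor, had a correlation of 0.999, Hand2, a transcription factor of heart and limb, 0.996, Zfp37 and the serotonin receptor gene Htr1b 0.995 each and Bdh1, a ketone body enzyme, 0.993. Hand2 was at 6.12, 5.47 and 4.37 CPM in lines SG1 to SG3 and at 8.002, 9.05 and 8.09 CPM in WT3, WT9 and WT11, with the lines in the order of Aldh1a3. The lowest correlations were those of Gcnt1, a glycan branching enzyme, at -0.999 and Prkaa2, a subunit of AMP-activated kinase, at -0.992. Of these 7, Prkaa2 and Gcnt1 were higher in SG (0.50 and 1.05 on the log2 scale), and the others were lower (-0.23 for Fgfr1 to -0.80 for Bdh1). Aldh1a3 was selected on this contrast, so genes picked for likeness to it differ between genotypes by construction. No p-values are given for them. These correlations are over 6 lines and were the extremes of many, so they describe the lines and no more.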

How the data were processed

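Poly(A)-selected RNA of 6 lines (SG1, SG2, SG3, WT3, WT9, WT11) was examined, grouped by the sample titles. The authors deposited raw read counts as whole numbers for each gene, beside its position and exon length. The tools used upstream were Trimmomatic 0.36, STAR 2.5.2b, featureCounts (Subread 1.5.2) and DESeq2, with build GRCm38, per the submitters' processing notes. The annotation release, strand setting and treatment of multimapping reads are not stated in these sources, which leaves paralogs and overlapping genes uncertain. Symbols came from GENCODE M21, in which 49056 of 49315 identifiers had one, and 0 rows named no gene.

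From the counts, edgeR 4.0.16 in R 4.3.3 tested SG against WT with filterByExpr, TMM scaling and the quasi-likelihood test, 2-sided, with no covariate, and Benjamini-Hochberg adjustment over all 16068 tested genes at 0.05; adjusted p below means this value. The SE of a log2 fold change was taken as its size over the root of the F statistic. Replicates are lines from separate embryos, so p-values refer to that spread. RPKM used the exon length of the files. Correlations are Pearson's on log2 CPM with a prior count of 2. Depth limits genes with few counts a line. Alternatives were RLE and upper quartile scaling, no count filter, DESeq2 1.42.0, limma-voom (limma 3.58.1), a robust prior, a minimum fold of 1.5, a covariate for Xist lines, and lines left out. The fit was tested on simulated data.

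The 9 genes and the lists were chosen with earlier results of these data known. Named are the 9 genes, each list's genes past the threshold or, with fewer than 2, those of smallest p up to 2, a fixed set of RXR, enzyme and target genes, and the 5 highest and 2 lowest correlations with Aldh1a3. Some genes that this rule takes are not reported here. Cyp1b1 was paired with Crabp1, and the marker genes named were picked, after their values were seen.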

Additional observations from a re-analysis of the deposited data

How the results depend on the processing

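Of the 9 genes, 1 passed under the reported settings. With no count filter 3 passed, with DESeq2 3, with limma-voom 2, with an Xist covariate 2, without SG1 and WT9 3, and with a robust prior or a minimum fold of 1.5 0; leaving out single lines gave 0 to 4. All passing genes were lower in SG, and the set was selected on this contrast. Of the other retinoid genes 6 passed, 12 with no count filter, 11 with DESeq2, 12 without SG1 and WT9, 0 with a minimum fold of 1.5, and 0 to 10 with single lines left out. All genes past the threshold were 306, 959 with no count filter, 948 with DESeq2, 703 without SG1 and WT9, 8 with a minimum fold of 1.5, 579 without SG1, 3 without SG2, 24 without WT3, 460 without WT9 and 29 without WT11; the cause was not tested. A robust prior and limma-voom gave 235 and 326. Of 135 refits of the 9 fold changes under 15 settings, 116 kept direction and side of the threshold, 5 lost it, 12 gained it and 2 turned sign. With single lines left out, the log2 fold change lay between -0.17 and 0.63 for Aldh1a2, -0.51 and 0.04 for Rarb, -0.11 and 0.01 for Rdh10, -0.89 and 0.13 for Cyp26c1, -0.04 and 0.38 for Tgm2, and -0.02 and 0.19 for Meis1. Cyp26c1 was 0.06 with limma-voom and 0.00 without SG1 and WT9. The order of the lines was the same with RLE scaling for 9 of 9 genes, and plain CPM kept the rank of level for 5 of 9. No paired analysis was possible because the genotypes share a single line number, which names separate embryos. Depth limits genes such as Aldh1a1, Cyp26c1 and Rxrg, with 6, 2 and 6 counts in their lowest lines.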
